A study of Mus musculus with 80 samples.

Results

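Sirtuins are deacylases that consume NAD+ and remove acetyl and longer acyl groups from lysines of histones, enzymes and transcription factors, and mammals carry them as a family of genes named Sirt1 to Sirt7. Their messenger RNAs were followed in the liver of C57BL/6J mice, an inbred laboratory strain, that were either fed ad libitum (control) or had food removed at circadian time (CT) 10 (fasted). The members were chosen by gene symbol in the deposited table of raw gene counts, which lists 78275 genes, and all 7 were found once. Mice were 8 to 12 weeks old, spent 10 days in alternating light and dark of 12 h each before constant darkness began, and livers were taken every 4 h from CT8 to CT44. Each treatment and time held 2 males and 2 females, 1 library per mouse, which gives 80 libraries of polyadenylated, strand-marked RNA. The control livers at a given CT were the background against which the fasted livers of the same CT were read. At CT8 food was still present for both groups, while livers of CT12 were taken 2 h and those of CT44 34 h after food removal. All mice were of this strain, and the labels name no genetic change in any group. Library titles and the other labels disagree on treatment for 40 libraries and on sex for 40, and the titles were used.

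SIRT1, SIRT6 and SIRT7 are found mainly in the nucleus, SIRT2 mainly in the cytosol, and SIRT3, SIRT4 and SIRT5 in mitochondria. In the liver, SIRT1 is best known for deacetylating the gluconeogenic coactivator PGC-1α and the clock proteins BMAL1 and PER2, and SIRT3 for deacetylating enzymes of fatty acid oxidation and ketogenesis. SIRT5 removes succinyl, malonyl and glutaryl groups, among others from the urea cycle enzyme CPS1. Because every member uses NAD+, the NAD+ salvage enzyme NAMPT, itself a clock-controlled gene product, ties the family to both feeding and circadian time.

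Positions are those of GENCODE M21 on GRCm38, since an annotation of the authors' build was not used here. Sirt1 lies at chr10:63319005-63381704 on the minus strand, Sirt2 at chr7:28766735-28788661 on the plus strand, Sirt3 at chr7:140863666-140882309 on the minus strand and Sirt4 at chr5:115478010-115484725 on the minus strand. Sirt5 lies at chr13:43365496-43395203 on the plus strand, Sirt6 at chr10:81621785-81627797 on the minus strand and Sirt7 at chr11:120618372-120625240 on the minus strand. Sirt7 shares 124 bases with Mafg and 54 with the microRNA gene Mir6936 on its own strand, so reads in those overlaps can belong to either gene. Sirt2 overlaps Nfkbib by 778 bases, Sirt3 overlaps Ric8a by 707 and Psmd13 by 342, and Sirt1 overlaps the antisense gene Gm16145 by 13035, each on the opposite strand, and whether the counting used strand is not given in the sources used here.

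The sequences just before the start sites of Sirt1, Sirt3 and Sirt7 are shown because these are the members whose difference between fasted and control livers varied with time. They are the last 120 bases before the RefSeq start site on GRCm38.p6, written 5′ to 3′ on the strand of the gene, with E-boxes (CACGTG, the site bound by CLOCK–BMAL1) in capitals. The windows are chr10:63339036-63339155 (minus) for Sirt1, chr7:140882310-140882429 (minus) for the first of the 2 start sites of Sirt3, and chr11:120625015-120625134 (minus) for Sirt7. Those of Sirt1 and Sirt7 lie inside the GENCODE spans given above, which reach to 63381704 and 120625240. The RefSeq starts used here are thus not the outer ends of these GENCODE genes.
Sirt1: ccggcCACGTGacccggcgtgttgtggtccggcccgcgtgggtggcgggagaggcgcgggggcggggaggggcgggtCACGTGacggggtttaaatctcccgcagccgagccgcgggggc
Sirt3: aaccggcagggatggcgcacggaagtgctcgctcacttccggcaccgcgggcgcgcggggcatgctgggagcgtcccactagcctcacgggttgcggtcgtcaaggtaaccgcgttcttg
Sirt7: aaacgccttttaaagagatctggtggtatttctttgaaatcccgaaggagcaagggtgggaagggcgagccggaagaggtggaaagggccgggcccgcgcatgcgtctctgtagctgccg
All 7 members had an entry in the RefSeq promoter table, with 9 start sites between them. Windows from 250 bases before to 50 after each start were searched on both strands for the E-box, the CRE (TGACGTCA, bound by CREB), a FOXO site (GTAAACA) and the D-box (TTATGTAA), which do not overlap one another here. Sirt1 held 2 E-boxes, beginning 115 and 43 bases before its start, and the other 8 windows held none of the 4 motifs. An E-box was present in 7.15% of all 32851 promoter windows of the table, a CRE in 1.79%, the FOXO site in 3.65% and the D-box in 0.938%. A match of letters is a description of these windows.

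Between 25534901 and 59927771 counts were assigned to genes in each library. The sex markers Xist and Ddx3y matched the sex named by the title in 80 of 80 libraries, and hepatocyte markers such as Alb were abundant in both groups. The ribosomal RNA gene Rn18s-rs5 took more than 1% of the counts in 7 libraries, up to 31.3% in control CT8 female replicate 2. One fasted library, CT40 female replicate 2, stood farthest from its group: over all genes tested its median absolute log2 difference from the other 3 libraries was 0.54, against a median of 0.24 over the 80 libraries. Several of the results that it moves are given with and without it.

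All 7 members passed the filter on low counts in this liver series, but at levels that differed widely. To compare genes, counts scaled to library size (CPM) were divided by the length in kb of all exons annotated in GENCODE M21. In the 40 control libraries Sirt3 had the highest level, 12.6 ± 1.93 CPM per kb (SD), followed by Sirt2 with 10.5 ± 0.608 and Sirt7 with 8.57 ± 1.05. Sirt4 had 3.37 ± 0.468 CPM per kb, Sirt1 2.28 ± 0.256, Sirt5 1.85 ± 0.367 and Sirt6 1.43 ± 0.171. In this order the ranges of 1 SD overlap between Sirt3 and Sirt2, between Sirt1 and Sirt5, and between Sirt5 and Sirt6. They do not overlap between the other neighbours. The SD is the spread between libraries and holds no uncertainty of the exon length. Without division by length, Sirt1 had 12.2 CPM and Sirt5 11.3 CPM, above Sirt4 with 8.09 CPM. The place of Sirt4 thus depends on the length used. Raw counts per library ran from 1265 to 4756 for Sirt3 but only from 85 to 278 for Sirt6 and 84 to 525 for Sirt4, so that single libraries are least precise for Sirt6 and Sirt4.

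**Figure D1:**
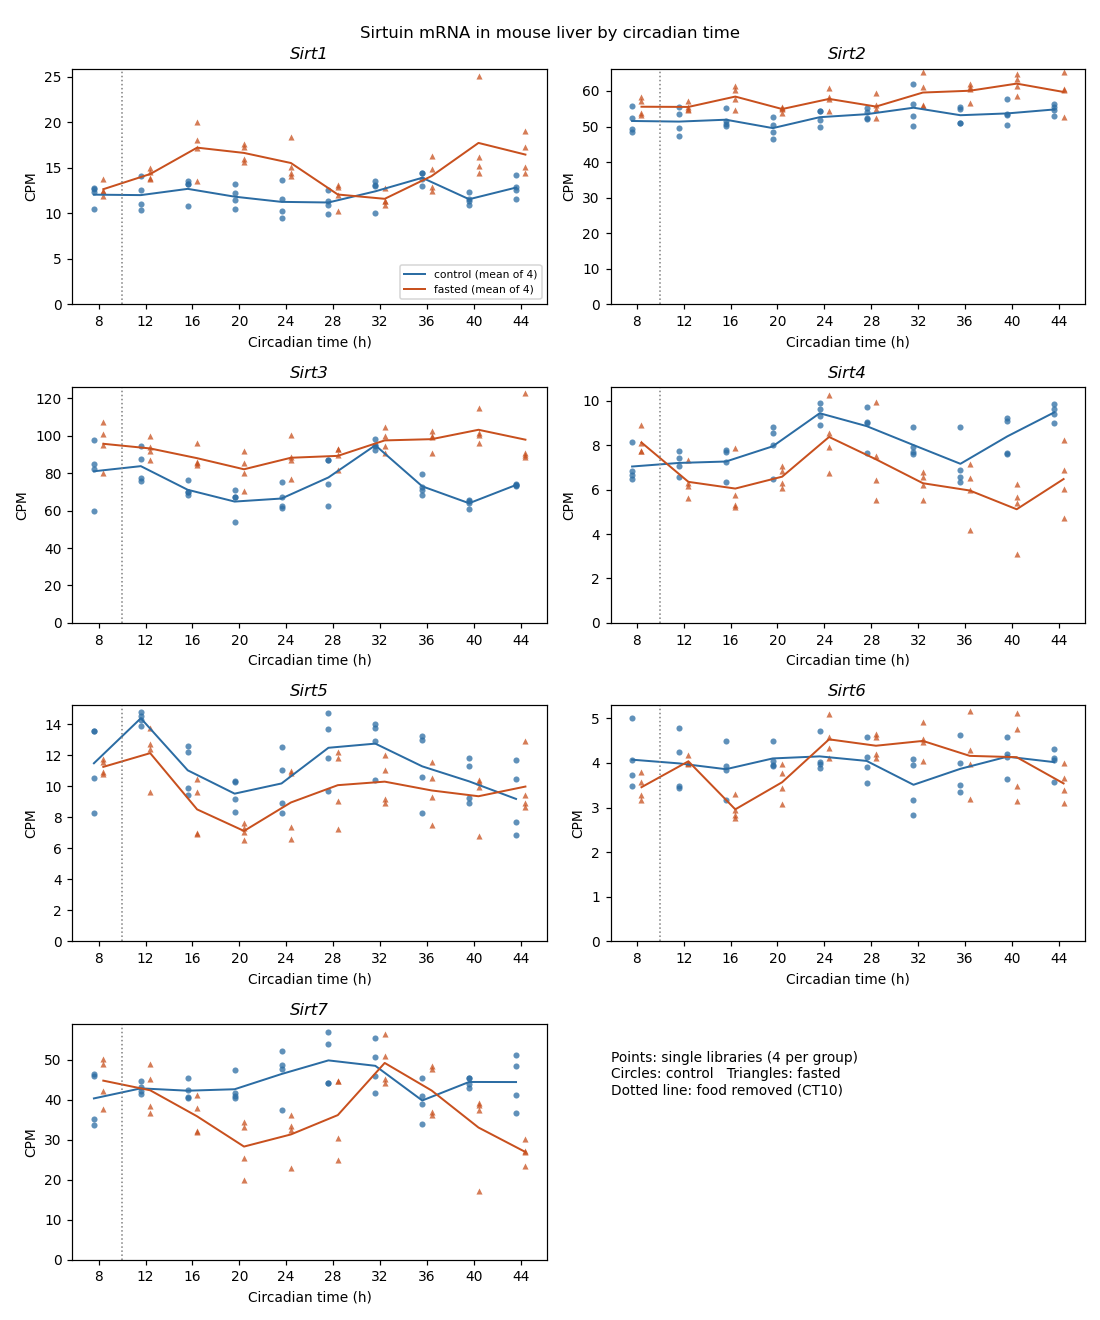
Level of each sirtuin in CPM (vertical axis, from 0) against circadian time (horizontal axis, h), with 1 point per library, 4 libraries per group and lines through the group means. Fasted points of Sirt1 and Sirt3 leave the control range at CT40, and fasted Sirt7 lies below control at CT20, CT24, CT40 and CT44.

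The main question of the design is how a fast changes liver transcripts against fed livers of the same circadian time. Averaged over CT12 to CT44, Sirt1, Sirt2 and Sirt3 rose with fasting, Sirt4, Sirt5 and Sirt7 fell, and Sirt6 was not called in either direction. Thus 6 of 7 members were called by edgeR's quasi-likelihood test at an adjusted p under 0.05. Of all 21187 genes tested, 62.5% were called, 29.5% as higher and 32.9% as lower in fasted livers, so a count of 3 higher and 3 lower among 7 is near what this liver shows overall. The sizes were near those of other genes too, between 1.10-fold and 1.27-fold for the 6 called members, where the median absolute difference of all genes was 0.27 on the log2 scale. In bulk liver, fewer cells of a type and less RNA per cell cannot be told apart.

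Among the nuclear members, Sirt1 rose. Its level in control livers from CT12 to CT44 had a lowest, median and highest value of 9.52, 12.5 and 14.4 CPM (n = 36), against 10.3, 14.7 and 25.1 CPM in fasted livers (n = 36), and the ranges overlap. The mean log2 difference was 0.29 (SE 0.038, edgeR adjusted p = 3.19e-09), which is 1.23-fold. Sirt7, which acts on ribosomal RNA transcription and chromatin, fell. Its lowest, median and highest levels were 34, 44 and 56.9 CPM in control livers and 17.1, 36.5 and 56.3 CPM in fasted livers. Sirt7 fell by 0.33 on the log2 scale (SE 0.039, edgeR adjusted p = 3.44e-10). Sirt6, a histone deacetylase linked to glycolytic genes and DNA repair, had 3.97 ± 0.463 CPM in control and 3.98 ± 0.671 CPM in fasted livers (SD, n = 36 each). Its log2 difference was -0.01, with an interval of 1.96 SE from -0.10 to 0.08 (adjusted p = 0.897), and the sign of so small a value turned under 8 of the other settings tried.

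The cytosolic Sirt2 deacetylates tubulin and several metabolic enzymes. It had the smallest of the called differences but also the smallest error: 52.9 ± 3.05 CPM in control and 58.2 ± 3.59 CPM in fasted livers (SD, n = 36 each), a log2 difference of 0.14 (SE 0.017, edgeR adjusted p = 1.2e-09).

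The mitochondrial members divided. Sirt3 rose from 74.4 ± 11.1 CPM in control to 93.1 ± 9.85 CPM in fasted livers (SD, n = 36 each), a log2 difference of 0.33 (SE 0.029, edgeR adjusted p = 4.89e-14). Sirt4, an ADP-ribosyltransferase and lipoamidase that restrains glutamate dehydrogenase and the pyruvate dehydrogenase complex, fell from 8.2 ± 1.1 to 6.51 ± 1.41 CPM. The log2 difference of Sirt4 was -0.34 (SE 0.046, edgeR adjusted p = 1.25e-08). Sirt5 fell from 11.2 ± 2.24 to 9.57 ± 2.07 CPM, a log2 difference of -0.24 (SE 0.038, edgeR adjusted p = 6.38e-07). Among the mitochondrial members the deacetylase Sirt3 thus rose while Sirt4 and Sirt5 fell.

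The 6 calls and their directions held in males alone and in females alone. In males the mean log2 difference was 0.26 for Sirt1, 0.17 for Sirt2, 0.28 for Sirt3, -0.27 for Sirt4, -0.18 for Sirt5 and -0.24 for Sirt7. In females the mean log2 difference was 0.34 for Sirt1, 0.11 for Sirt2, 0.38 for Sirt3, -0.42 for Sirt4, -0.29 for Sirt5 and -0.43 for Sirt7. Only the test of the difference, given below, bears on whether the sexes differ.

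**Figure D2:**
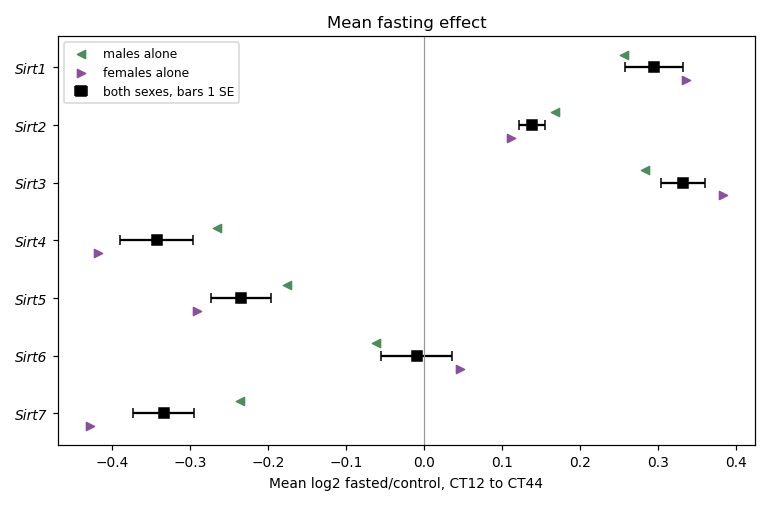
Mean log2 ratio of fasted to control livers over CT12 to CT44 (horizontal axis) for each sirtuin (vertical axis), with squares and bars of 1 SE for both sexes and triangles for males and females fitted alone. Sirt1, Sirt2 and Sirt3 lie to the right of 0, Sirt4, Sirt5 and Sirt7 to the left, and Sirt6 at -0.01.

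Markers of other liver cells were called as well, where 62.5% of all genes were called, 29.5% as higher and 32.9% as lower. With 4 or 5 markers per cell type, such counts are not read as a shift of a cell type. All 4 Kupffer cell markers (Adgre1, Clec4f, Cd5l, Vsig4) were lower in fasted livers. Their summed level ran from 176 to 508 CPM with a median of 274 in control livers and from 114 to 375 CPM with a median of 205 in fasted livers. Of 4 cholangiocyte markers 3 were lower, of 4 stellate cell markers 1 was higher and 2 lower, of 4 endothelial markers 1 was higher and 2 lower, of 4 lymphocyte markers 2 were lower, of 4 erythroid markers 2 were lower, and of 5 hepatocyte markers 3 were higher and 1 lower. None of these markers was at 0 in the group means. Their part in the sirtuin differences was not tested. Of the fasting markers, Fgf21 was higher and Srebf1 lower in the livers titled fasted.

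Single times show when these averages arose. Over the 9 times from CT12 to CT44, 28 of 63 member-times were called, 16 higher and 12 lower. Leaving out a replicate number leaves 1 library of that sex per treatment and time. In fits with a mean per treatment, time and sex, the spread then comes from the other sex alone. Fewer were called with a replicate number left out, 10 without male replicate 1, 13 without male replicate 2 and 26 without either female replicate. At CT8, before food was removed, edgeR called 0 of 7 members (2 at an unadjusted p under 0.05), with 1.33% of all genes called, and limma-voom also called 0. At CT12, after 2 h without food, edgeR again called 0 of 7 (3 at an unadjusted p under 0.05) against 1.6% of all genes, and limma-voom called 0. The number called was 5 of 7 at CT16 (23.4% of all genes), 5 at CT20 (36.6%), 4 at CT24 (24.1%), 2 at CT28 (21%), 1 at CT32 (17.7%), 2 at CT36 (26.8%), 5 at CT40 (39.9%) and 4 at CT44 (39.4%). The members called were thus most numerous at CT16, CT20 and CT40. The share of all genes called was itself highest at CT40, CT44 and CT20. At CT32 the count of 1 of 7 (2 with limma-voom) is close to the share of all genes, and so are the counts of 2 of 7 at CT28 and CT36.

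The 4 fasted libraries lay wholly above or below the 4 control libraries of their time in 22 of 63 member-times, above in 13 and below in 9. By time this held for 1 member at CT12, 2 at CT16, 4 at CT20, 3 at CT24, 0 at CT28, 1 at CT32, 2 at CT36, 5 at CT40 and 4 at CT44. The same separation was seen in 5.96% of all genes at CT12, 18.9% at CT16, 29.8% at CT20, 19.5% at CT24, 18.5% at CT28, 18.5% at CT32, 21.5% at CT36, 26.7% at CT40 and 30.1% at CT44.

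**Figure D3:**
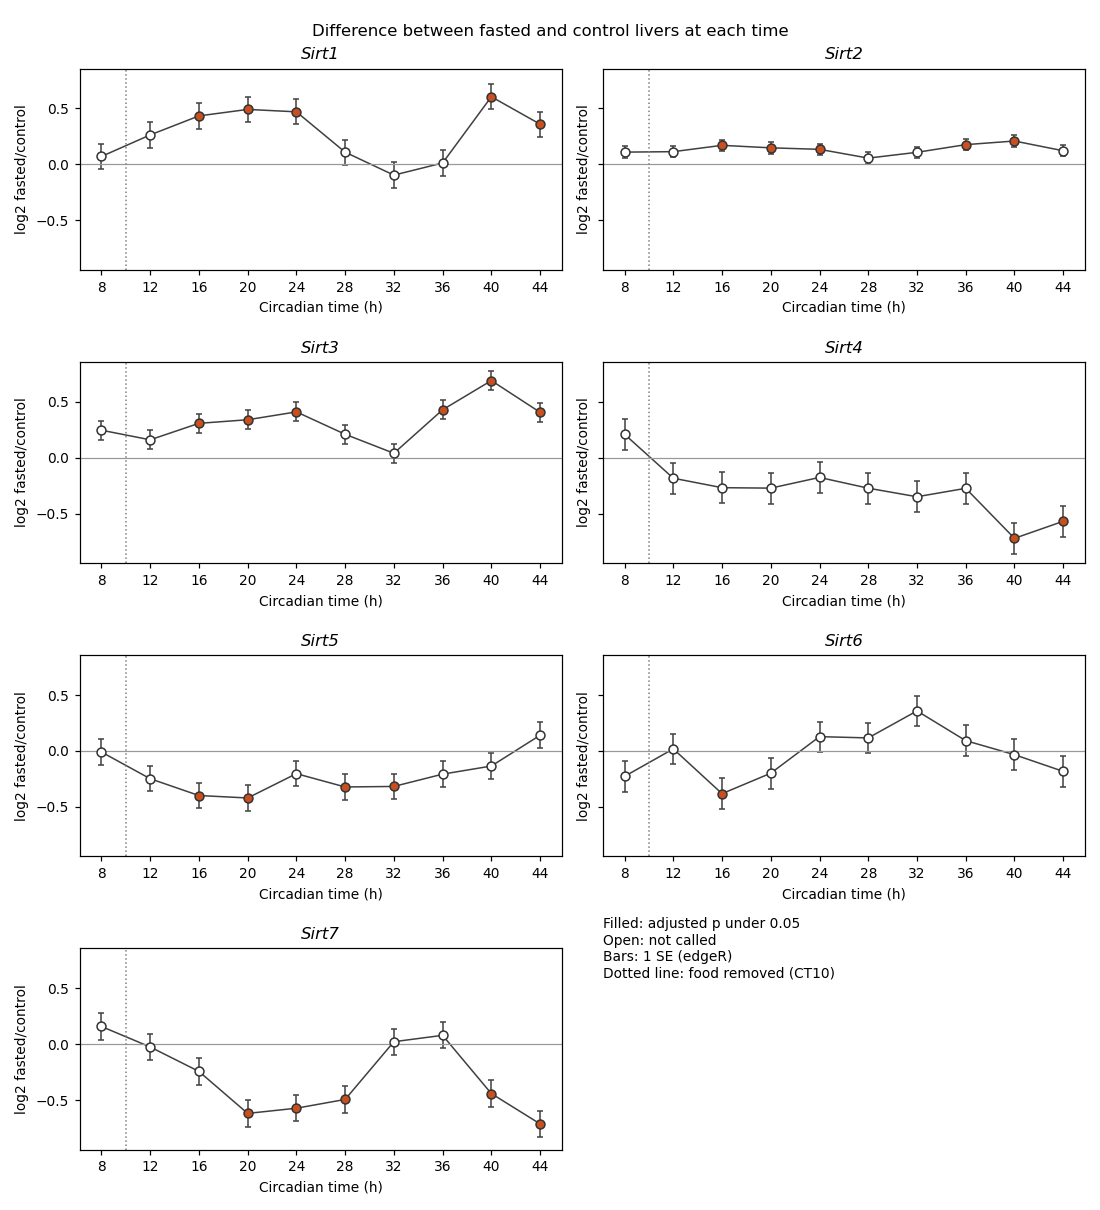
Log2 ratio of fasted to control livers (vertical axis) at each circadian time (horizontal axis, h), with bars of 1 SE from edgeR, filled points for an adjusted p under 0.05 and open points otherwise. Sirt1 and Sirt7 return to near 0 at CT32 and CT36, while Sirt4 has its lowest values at CT40 and CT44.

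Sirt1 followed a course with a gap in the middle. At CT20 the 2 males had 10.4 and 13.2 CPM and the 2 females 11.4 and 12.2 CPM in the control group, against 17.6 and 15.7 CPM in fasted males and 16 and 17.2 CPM in fasted females. The fasted livers were all above the control livers, with a log2 difference of 0.49 (SE 0.113, edgeR adjusted p = 0.000474). At CT32 control males had 13.1 and 13.5 CPM and control females 13.0 and 10.0 CPM, while fasted males had 11.4 and 12.8 CPM and fasted females 11.3 and 10.9 CPM. Here the groups overlapped and the log2 difference was -0.10 (adjusted p = 0.626). At CT40 control livers had 10.9, 12.3, 11.4 and 11.6 CPM and fasted livers 16.2, 15.2, 14.4 and 25.1 CPM, again without overlap. The log2 difference at CT40 was 0.61 (SE 0.113, edgeR adjusted p = 2.58e-05), and 0.40 (adjusted p = 0.00316) without the library that holds the highest value, CT40 female replicate 2.

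Sirt2 was higher in fasted livers in the mean at each of the 9 times, by 0.06 to 0.21 on the log2 scale, and was called at 5. Its largest difference was at CT40, where control livers had 50.5, 53.4, 53.2 and 57.6 CPM and fasted livers 64.8, 63.5, 61.5 and 58.5 CPM. The groups did not overlap there (log2 difference 0.21, SE 0.051, edgeR adjusted p = 0.000832). With the 8 libraries of each time fitted alone none of these 5 times passed (adjusted p from 0.0862 to 0.205), nor did any without a filter on low counts, and the calls at CT16, CT20 and CT24 were lost without any 1 of the replicate numbers. At CT8, before the fast, its log2 difference was already 0.11 (adjusted p = 0.34), which is no call but is close to its mean over the fast of 0.14.

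Sirt3 was higher at each of the 9 times and was called at 6. At CT32, near the peak of the control livers, control males had 98.1 and 94.3 CPM and control females 95.2 and 92.3 CPM, and fasted males had 94.8 and 100 CPM and fasted females 91.0 and 105 CPM. These groups overlapped, with a log2 difference of 0.04 (adjusted p = 0.814). At CT40 control livers had 64.3, 65.8, 60.7 and 65.1 CPM while fasted livers had 96.2, 100.5, 101 and 115 CPM. The groups stood well apart, with a log2 difference of 0.69 (SE 0.086, edgeR adjusted p = 1.15e-08), or 1.61-fold, the largest rise of any member at any time. At CT8, before the fast, the log2 difference was already 0.25 (edgeR unadjusted p = 0.00627, adjusted p = 0.145). That is no call, but it is a large part of the mean over the fast of 0.33. The lowest control value at CT8, 59.8 CPM, was in the library richest in ribosomal RNA.

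Sirt4 was lower at each of the 9 times and was called at CT40 and CT44. At CT40 control livers had 9.12, 9.23, 7.66 and 7.61 CPM and fasted livers 5.69, 6.27, 5.42 and 3.09 CPM, all of the fasted values below all of the control values. The log2 difference was -0.72 (SE 0.141, edgeR adjusted p = 4.98e-05), and -0.54 (adjusted p = 0.00393) without the lowest library, CT40 female replicate 2. At CT44 control livers had 9.86, 9.4, 9.66 and 9.02 CPM and fasted livers 8.24, 6.88, 4.75 and 6.05 CPM, with a log2 difference of -0.57 (adjusted p = 0.000945). These are counts of 84 to 464 per library at CT40, so counting error is a larger part of the spread than for Sirt3.

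Sirt5 was lower at 8 of 9 times and was called at CT16, CT20, CT28 and CT32, that is between 6 and 22 h after food removal. At CT20 control livers had 9.16, 10.3, 8.34 and 10.3 CPM and fasted livers 7.61, 7.32, 7.02 and 6.53 CPM, without overlap (log2 difference -0.42, SE 0.115, edgeR adjusted p = 0.00326). At CT44 the order was the opposite, with 10.4, 11.7, 6.88 and 7.72 CPM in control and 12.9, 9.43, 8.65 and 8.91 CPM in fasted livers. That difference of 0.14 on the log2 scale was within the spread of the groups (adjusted p = 0.354). The calls at CT28 and CT32 were weak: they were lost with upper quartile scaling (adjusted p = 0.0621 and 0.0702), with the 8 libraries of the time alone, with no filter and without the libraries rich in ribosomal RNA. The log2 difference at CT28 was -0.32 with all libraries and -0.17 without female replicate 1, and at CT32 it was -0.32 and -0.19 without female replicate 2.

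Sirt6 was called at a single time. At CT16 control livers had 4.49, 3.16, 3.94 and 3.85 CPM and fasted livers 2.95, 3.3, 2.83 and 2.77 CPM, with 1 control value inside the fasted range. The log2 difference was -0.38 (SE 0.139, edgeR adjusted p = 0.0384). It was not called by limma-voom (adjusted p = 0.0666) nor with the 8 libraries of CT16 fitted alone (adjusted p = 0.0964). At CT32 the value of Sirt6 was 0.36 (adjusted p = 0.0626), with fasted libraries at 4.05 to 4.92 CPM and control libraries at 2.83 to 4.09 CPM.

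Sirt7 was called lower at CT20, CT24, CT28, CT40 and CT44, and 4 of these 5 times are ones at which Sirt1 was called higher. At CT20 control males had 40.5 and 47.4 CPM and control females 40.9 and 41.6 CPM, against 34.5 and 33.2 CPM in fasted males and 20 and 25.4 CPM in fasted females. No fasted value reached the control range, and the log2 difference was -0.62 (SE 0.118, edgeR adjusted p = 3.9e-05). At CT32 it was 0.02 (adjusted p = 0.934), with control livers at 55.5, 50.7, 41.8 and 45.8 CPM and fasted livers at 51.0, 56.3, 44.2 and 45.2 CPM. At CT44 control livers had 51.2, 48.5, 36.7 and 41.2 CPM and fasted livers 30.1, 27.0, 23.5 and 27.1 CPM, a log2 difference of -0.71 (SE 0.118, edgeR adjusted p = 3.73e-06). At CT40 control livers had 45.4, 45.4, 43.9 and 43.0 CPM and fasted livers 39.1, 37.3, 38.7 and 17.1 CPM. The log2 difference at CT40 was -0.44 (adjusted p = 0.00217) but only -0.19 (adjusted p = 0.107) without CT40 female replicate 2, so that this call rests on 1 library.

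Whether the fasting difference changed with time was tested jointly over the 9 times. Sirt7 (edgeR adjusted p = 2e-04), Sirt3 (0.00221) and Sirt1 (0.00328) passed, Sirt6 (0.0605), Sirt5 (0.11), Sirt4 (0.219) and Sirt2 (0.712) did not, so 3 of 7 members were called where 33.7% of all genes were. Sirt6 passed with upper quartile scaling (0.0390), with a filter of at least 1 CPM (0.0369) and without the control library richest in ribosomal RNA (0.0444). With male replicate 1 left out edgeR called 0 of 7 (1 at an unadjusted p under 0.05, lowest adjusted p = 0.102), and with male replicate 2 left out also 0 of 7 (3 at an unadjusted p under 0.05, lowest adjusted p = 0.156), whereas 4 were called without either female replicate. In each of these subsets 1 sex has 1 library per treatment and time, so the spread comes from the other sex alone. A lost call therefore does not show that the result rested on the mice left out. Calls over all genes also fell without a male replicate. The test was not repeated with another tool on these subsets.

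In control livers 4 members were lower in females than in males, the mitochondrial Sirt3, Sirt4 and Sirt5 and the nuclear Sirt7. Across all genes 39.2% differed between the sexes in control livers. Sirt5 differed most: its lowest, median and highest levels were 9.16, 12.7 and 14.7 CPM in 20 control males and 6.88, 9.59 and 14.8 CPM in 20 control females, with overlap. The log2 difference, female minus male, was -0.30 (SE 0.051, edgeR adjusted p = 6.15e-06). Sirt7 had 47.5 ± 4.62 CPM in males and 40.8 ± 3.9 CPM in females (SD, n = 20 each), a log2 difference of -0.22 (SE 0.052, edgeR adjusted p = 0.000692). Sirt3 had 78.8 ± 11.4 CPM in males and 71.4 ± 10.6 CPM in females, a log2 difference of -0.14 (adjusted p = 0.00289). Sirt4 had 8.52 ± 0.997 and 7.66 ± 1.1 CPM, a log2 difference of -0.16 (adjusted p = 0.0389) that no longer passed with upper quartile scaling (0.084), without the libraries rich in ribosomal RNA (0.0616) or without any 1 of the replicate numbers. The call of Sirt3 was lost without male replicate 1 (adjusted p = 0.0781) or male replicate 2 (0.0607) and that of Sirt7 without male replicate 1 (0.0767), whereas Sirt5 stayed called throughout. Sirt1, Sirt2 and Sirt6 differed between the sexes by -0.02, -0.01 and 0.01 on the log2 scale and were not called.

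The fasting difference itself was compared between the sexes. Of the 7 members edgeR called 0, with 1 at an unadjusted p under 0.05, and limma-voom called 0, while 12.4% of all genes were called. The member nearest the threshold was Sirt7, whose difference, female minus male, was -0.19 on the log2 scale (interval of 1.96 SE from -0.35 to -0.04, adjusted p = 0.0961). Without female replicate 1 it was -0.25 (adjusted p = 0.00116) and without female replicate 2 -0.17 (adjusted p = 0.0265). Without male replicate 1 or male replicate 2 it was not called, and without fasted CT40 female replicate 2 it was -0.14 (adjusted p = 0.1). In the fasted livers Sirt7 had 40.9 ± 7.92 CPM in males and 31.4 ± 8.06 CPM in females (SD, n = 18 each), against 47.6 ± 4.86 and 41.5 ± 3.41 CPM in control livers. For the other members the intervals of the sex difference spanned 0.

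Rhythms were fitted with a 24 h cosine. In control livers Sirt3, Sirt4, Sirt5 and Sirt7 were rhythmic, 4 of 7 members against 43.8% of all genes. Sirt3 peaked at CT7.86 (SE 0.786 h) and its fitted log2 level ran 0.36 from trough to peak (SE 0.064, edgeR adjusted p = 6.07e-05). Sirt5 peaked at nearly the same time, CT8.97 (SE 0.859 h), with 0.43 (SE 0.087, adjusted p = 0.000428). Sirt4 had a different phase, with its peak at CT23.7 (SE 0.616 h) and a difference of 0.39 (SE 0.066, adjusted p = 2.53e-05). The group means of Sirt4 show this, from 7.21 ± 0.492 CPM at CT12 to 9.45 ± 0.425 CPM at CT24 and from 7.17 ± 1.15 CPM at CT36 to 9.49 ± 0.361 CPM at CT44 (SD, n = 4 each). Sirt7 had the weakest called rhythm, 0.19 (SE 0.061, adjusted p = 0.0274) with a peak at CT2.09, and it was lost without any 1 of male replicate 1, male replicate 2 and female replicate 2. Sirt1, Sirt2 and Sirt6 were not called in control livers, with fitted differences of 0.16, 0.03 and 0.10.

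In fasted livers, from CT12 to CT44 and with a linear change over time allowed for, Sirt1, Sirt4, Sirt5, Sirt6 and Sirt7 were rhythmic, 5 of 7 against 49.3% of all genes. These 9 times cover little more than 1 cycle, so a rhythm here is a fit to 1 and a part of a second cycle. Sirt7 had the largest log2 difference from trough to peak, 0.75 (SE 0.094, edgeR adjusted p = 4.56e-07), with a peak at CT9.1 (SE 0.496 h). Sirt1 came next with 0.59 (SE 0.094, adjusted p = 2.6e-05) and a peak at CT18.3 (SE 0.584 h). Sirt4 had 0.48 (adjusted p = 0.00187, peak at CT2, SE 0.864 h), Sirt6 0.42 (adjusted p = 0.00547, peak at CT5.57, SE 0.918 h) and Sirt5 0.39 (adjusted p = 0.00822, peak at CT9.02, SE 1.05 h). Without fasted CT40 female replicate 2 the value was 0.52 for Sirt1, 0.43 for Sirt4 and 0.40 for Sirt5. Sirt3, rhythmic in control livers, had 0.17 (adjusted p = 0.078, but 0.0378 with upper quartile scaling), and Sirt2 had 0.08 (adjusted p = 0.299). The call of Sirt4 was lost without female replicate 2 (adjusted p = 0.0565), that of Sirt5 without male replicate 2 (0.071), and that of Sirt6 without male replicate 1 (0.0527) or male replicate 2 (0.0583).

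**Figure D4:**
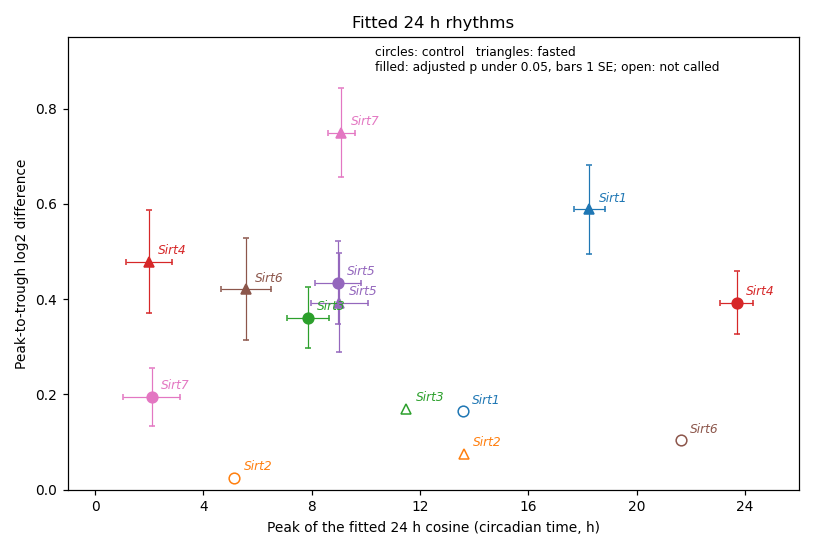
Peak-to-trough log2 difference (vertical axis) against the peak of the fitted 24 h cosine (horizontal axis, circadian time in h) for each sirtuin, with circles for control livers (CT8 to CT44) and triangles for fasted livers (CT12 to CT44, with a linear term), filled where the adjusted p is under 0.05 and with bars of 1 SE. Sirt7 and Sirt1 in fasted livers stand highest, at 0.75 and 0.59, while the control and fasted points of Sirt5 nearly coincide.

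The difference between the rhythms of fasted and control livers was then tested itself, over the 72 libraries from CT12 to CT44. Sirt7 (edgeR adjusted p = 1.34e-06), Sirt1 (0.00123), Sirt6 (0.00989) and Sirt3 (0.0281) differed, 4 of 7 members against 24.4% of all genes. Fitted over the same times with a linear term in both groups, the log2 differences from trough to peak in control and fasted livers were 0.23 and 0.75 for Sirt7, 0.17 and 0.59 for Sirt1, 0.14 and 0.42 for Sirt6 and 0.40 and 0.17 for Sirt3. Sirt5 (0.849), Sirt4 (0.402) and Sirt2 (0.396) were not called, which does not show that their rhythms were alike. Each fasted time is also 1 length of fast, so this test cannot tell a changed rhythm from a response to hours without food. The call of Sirt3 was lost without male replicate 1, male replicate 2 or female replicate 1, and that of Sirt6 without male replicate 1 or female replicate 1.

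The deposited counts per exon bin (a piece of exon as delimited by the counting annotation) show whether parts of a gene moved differently from the gene as a whole. Of the 7 members Sirt3 (edgeR diffSpliceDGE, adjusted p = 8.88e-17) and Sirt7 (0.00575) were called, 2 of 7 where 14.7% of the 13728 genes tested were. The others were Sirt6 (0.382), Sirt5 (0.408), Sirt4 (0.564), Sirt1 (1) and Sirt2 (1). A gene-level F test in place of Simes' method also called Sirt5 (adjusted p = 0.0223). Bins are numbered in the deposited table, with no coordinates, so their place in the gene is not given here.

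In Sirt3 6 of 22 bins were called, all with relatively more counts in fasted livers. Bin 5 held 1.26 ± 0.399% of the counts of the gene's tested bins in control and 2.01 ± 0.766% in fasted livers (SD, n = 36 each). Its relative difference was 0.46 on the natural log scale (bin adjusted p = 4e-17). Bin 6 went from 1.23 ± 0.366% to 1.89 ± 0.627%, bin 8 from 3.28 ± 0.483% to 4.36 ± 1.05%, bin 9 from 1.88 ± 0.292% to 2.39 ± 0.525% and bin 18 from 0.807 ± 0.203% to 1.13 ± 0.337%. Bin 12 was very small, 0.138% and 0.184%, with 0 to 25 counts per library (bin adjusted p = 0.0417). These bins were all minor ones: the largest bins of Sirt3, bins 13, 2 and 4, held 15.1%, 12.5% and 11.8% in control and 14.6%, 12.4% and 11.6% in fasted livers and were not called. Sirt3 thus rose with a relative gain in 6 of its minor bins.

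In Sirt7 1 of 38 bins was called, bin 24, which held 1.34 ± 0.273% in control and 1.73 ± 0.458% in fasted livers. The relative difference of bin 24 was 0.25 on the natural log scale (bin adjusted p = 0.00143). Its own level was 0.788 and 0.802 CPM, nearly the same in both groups, while the gene as a whole fell. The call of Sirt7 was lost when male replicate 1 (adjusted p = 0.361), male replicate 2 (0.57) or female replicate 2 (0.332) was left out, whereas that of Sirt3 was kept under every setting tried. Among the exon counts, 3 of the 4 fasted CT40 columns resembled another library of their group more than their own gene counts, so that group was fitted without sex. Without CT40 the same 2 members were called.

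**Figure D5:**
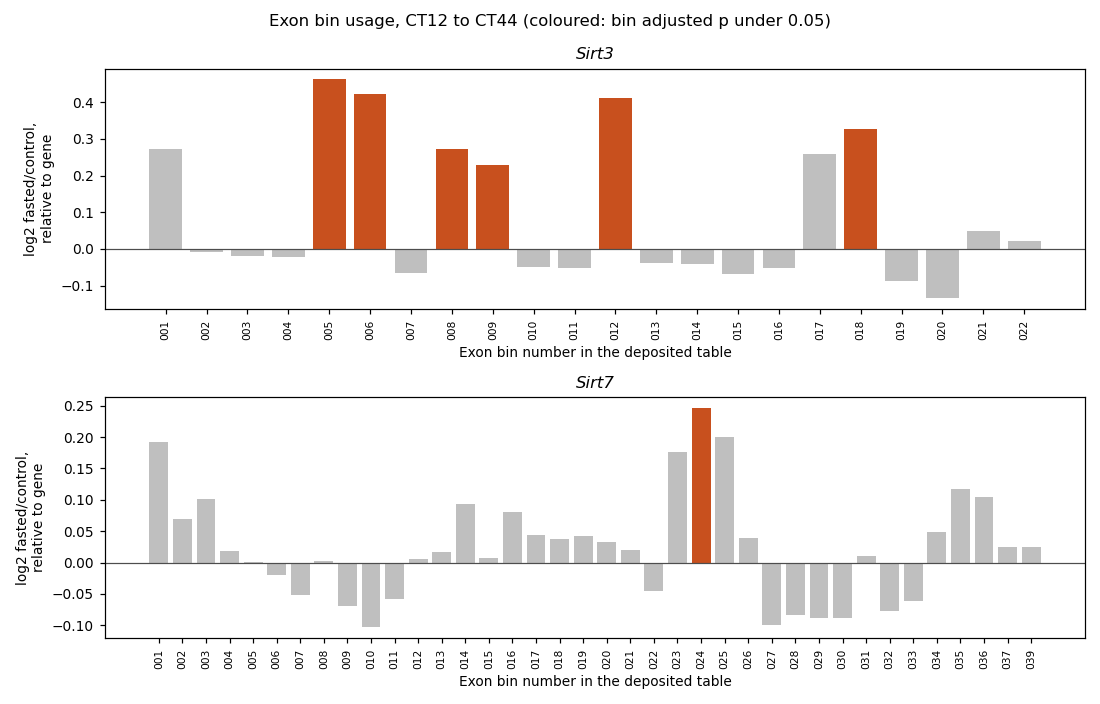
Relative ratio of fasted to control livers on the natural log scale (vertical axis) for each tested exon bin (horizontal axis, bin number in the deposited table) of Sirt3 and Sirt7. The vertical axis is labelled log2, but its values are natural logs. Coloured bars mark a bin adjusted p under 0.05. The 6 coloured bars of Sirt3 lie between 0.23 and 0.46, and the single coloured bar of Sirt7 at 0.25.

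The supply of NAD+ is shared by all members, and of 23 genes of NAD+ metabolism 22 could be tested. Of these, 8 rose, 11 fell and 3 were not called in the mean over CT12 to CT44, with a median log2 difference of -0.15 (-0.02 over all genes). Over all genes tested 62.5% were called, 29.5% as higher and 32.9% as lower. The largest rises were in Tdo2, which begins the breakdown of tryptophan (log2 difference 1.15, adjusted p = 1.29e-22), Nnmt, which methylates nicotinamide (0.99, 1.58e-08), and Slc25a51, the mitochondrial NAD+ carrier (0.96, 4.62e-18). The largest falls were in Haao (-0.80, adjusted p = 1.06e-17) and Ido2 (-0.78, 3.67e-08), both of the kynurenine pathway, and in the weakly expressed Nmnat2 (-0.67, 0.00119). Nampt, the salvage enzyme, rose by a small margin, 0.13 (SE 0.048, edgeR adjusted p = 0.0167), from 102 ± 48.5 to 107 ± 37.7 CPM (SD, n = 36 each). Parp1, another consumer of NAD+, fell from 45.8 ± 2.66 to 32.7 ± 5.45 CPM (-0.50, adjusted p = 4.02e-20).

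The zinc-dependent deacetylases, which do not use NAD+, were set beside the sirtuins. Of 11 tested, 1 rose (Hdac4, log2 difference 0.18, edgeR adjusted p = 1.03e-05), 5 fell and 5 were not called, with a median of -0.07. The share called over all genes was 62.5%, with 29.5% higher and 32.9% lower. The largest falls were in Hdac9 (-0.90, adjusted p = 4.53e-11), Hdac11 (-0.60, 1.8e-17) and Hdac1 (-0.34, 2.96e-14).

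Of 31 reported substrates and regulators of sirtuins, 13 rose, 10 fell and 8 were not called, with a median of 0.01. Among the largest rises were those of Ppargc1a, which encodes PGC-1α (log2 difference 1.73, adjusted p = 1.29e-17), and Acadm, an acyl-CoA dehydrogenase (1.19, 8.98e-26). The largest falls were in Srebf1, the lipogenic regulator (-3.13, adjusted p = 1.9e-29), Acss2, the cytosolic acetyl-CoA synthetase (-2.10, 1.36e-20), and the clock gene Per2 (-0.64, 1.77e-10). All 3 lists held calls in both directions, and so did all genes tested, of which 62.5% were called, 29.5% as higher and 32.9% as lower. This is thus no trait particular to these lists or to the sirtuins.

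For each member the 2 genes most alike in pattern were found among 10802 candidates by Pearson's r over the 20 group means of log2 CPM, which share libraries and are given as a description. They were Rnf146 (0.95) and Mtfr1 (0.94) for Sirt1, Fam234a (0.94) and Tmem134 (0.92) for Sirt2, and Bckdha (0.96) and Npc1 (0.94) for Sirt3. They were Commd7 (0.94) and Itgb5 (0.91) for Sirt4, Hemk1 (0.91) and Atg10 (0.90) for Sirt5, Dtwd1 (0.82) and Dph7 (0.79) for Sirt6, and S100a16 (0.96) and Pigk (0.94) for Sirt7. Among the members themselves the most alike pair was Sirt2 and Sirt3 (0.79) and the most opposed was Sirt1 and Sirt7 (-0.82).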

How the data were processed

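Liver transcriptomes of 40 control and 40 fasted mice were compared. The authors deposited raw counts per gene and raw counts per exon bin, whole numbers without normalization. The submitters' processing notes name Trimmomatic, HISAT2, DESeq2 and GRCm39, with no versions. A table of normalised values was not used. In the exon counts, 5 rows without a bin name, which held 8.28% to 25.9% of each column, were left out. Libraries were grouped by title. Genes were filtered with filterByExpr, scaled by TMM and fitted with edgeR 4.0.16 (R 4.3.3) quasi-likelihood models with a mean per treatment, time and sex, all 80 libraries sharing the spread. Adjusted p-values follow Benjamini and Hochberg over all genes tested, and calls were made under 0.05. CPM values are TMM-scaled, and log2 CPM has a prior count of 2. Rhythms had a cosine and sine of 24 h with sex, and a linear term from CT12 on in fasted livers and in the difference. Exon bins were tested with diffSpliceDGE and Simes' method. limma 3.58.1 and DESeq2 1.42.0 were alternatives. The tests were also run on simulated counts with the same spread for every gene, which does not show how they behave on these livers. Members, lists and tests were chosen with earlier results of these data known. The named genes are the 7 members, the 3 largest called rises and falls of each list, the 2 genes most like each member, and called exon bins. Nampt and Parp1 were named after their values were seen. One gene that this rule names is not reported here. Replicate numbers do not pair the mice: over 20 pairs the correlation of deviations ran from -0.0564 to 0.249, with 1 above 0.1. No 2 replicates agreed within sampling noise (120 pairs, lowest chi-square per degree of freedom 14.8). The labels do not tie replicates to cages, and p-values set a difference against the spread between these mice. Intervals reach 1.96 SE to each side of an estimated difference and do not give the range between mice.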

Additional observations from a re-analysis of the deposited data

Results flagged for a closer look

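In 8 of 140 groups of 4 livers (a member, a treatment and a time), 1 liver stood apart from the other 3 by Dixon's criterion, and chance alone gives this in about 1 of 20 groups. Sirt1 had 10.8 CPM in control CT16 female replicate 2, against 13.2 to 13.5 CPM in the others, and 10.0 CPM in control CT32 female replicate 2, against 13.0 to 13.5 CPM. Sirt3 had 96.0 CPM in fasted CT16 male replicate 2, against 84.5 to 86.0 CPM, and 122.7 CPM in fasted CT44 female replicate 1, against 88.5 to 91.0 CPM. Sirt6 had 4.18 CPM in fasted CT12 male replicate 2, against 3.98 to 4.00 CPM, a group with an unusually narrow spread. Sirt7 had 47.4 CPM in control CT20 male replicate 2, against 40.5 to 41.6 CPM. In fasted CT40 female replicate 2 both Sirt5, with 6.78 CPM against 9.97 to 10.4 CPM, and Sirt7, with 17.1 CPM against 37.3 to 39.1 CPM, stood low. That liver is also the one farthest from its group over all genes.

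The fasting difference varied between times for Sirt1 (edgeR adjusted p = 0.00328), Sirt3 (0.00221) and Sirt7 (2e-04). The fitted 24 h cosine differed between fasted and control livers for Sirt1 (edgeR adjusted p = 0.00123), Sirt3 (0.0281), Sirt6 (0.00989) and Sirt7 (1.34e-06).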

How the results depend on the processing

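The mean fasting difference called 6 of 7 members, 3 higher and 3 lower, under each alternative run. Without a filter on low counts the calls at single times fell from 28 to 18 and those of the rhythm difference from 4 to 2. Leaving out a replicate number leaves 1 library of that sex per treatment and time. Except in the rhythm fits, the spread then comes almost wholly from the other sex. With 1 replicate number of 1 sex left out, the calls ranged from 10 to 26 at single times (28 with all libraries), from 0 to 4 over time (3), from 1 to 3 for sex in control livers (4), from 0 to 1 for sex in the fasting difference (0), from 3 to 5 for the fasted rhythm (5), from 2 to 4 for the rhythm difference (4) and from 1 to 2 for exon bins (2). With the replicate number as a block within sex, a pairing the data do not bear out, the calls were 28 at single times and 3 for sex in control livers (Sirt4, adjusted p = 0.128). At CT32 Sirt5 was not called with the block (adjusted p = 0.0522). Values near 0 turned sign. The Sirt1 sex difference in control livers was 0.0470 with the block and 0.00578 with upper quartile scaling, and ran from -0.0709 to 0.0336 over the left-out replicates. The Sirt2 sex difference in control livers was 0.0115 with upper quartile scaling and ran from -0.0390 to 0.00839. The Sirt6 sex difference in control livers was -0.0116 with the block, -0.0191 without the control library richest in ribosomal RNA and -0.0702 without those above 1%, and ran from -0.0451 to 0.0570. The Sirt6 mean fasting effect was 0.0369, 0.0140 and 0.0119 with CT16, CT20 or CT44 left out, 0.00178 with at least 1 CPM in 4 libraries, 0.0458 in females alone and 0.00162 with upper quartile scaling, and ran from -0.0287 to 0.0107 over the left-out replicates. The cause of these changes was not tested.

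Without the fasted library farthest from its group, an alternative chosen after seeing the data, the calls were 6 for the mean, 28 at single times and 4 over time, where Sirt5 was added (adjusted p = 0.0415). Counts over all genes moved by more than 1.5 times at CT8 (282 called, 4 with limma-voom, 0 or 1 without male replicate 1 or 2 and 2123 without female replicate 1), at CT12 (340, and 1158 without a filter or 4 with the 8 libraries alone), at CT40 (8459, 4353 with the 8 libraries alone and 5072 without male replicate 1), at CT44 (8355, and 4545 without male replicate 2), over time (7130, and 1647 or 1186 without male replicate 1 or 2), for sex in the fasting difference (2621, and 238 or 360) and for the rhythm difference (4868, and 2702 without male replicate 2). At the times from CT16 to CT36, leaving out male replicate 1 or 2 also moved them by more than 1.5 times, with 1198 called at CT32 at the lowest (3751 with all libraries). The low counts of Sirt4 and Sirt6, down to 84 and 85 per library, limit single libraries.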
